A study of Mus musculus with 25 samples.

Results

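Genes of cholesterol synthesis, uptake, sensing and efflux were followed in 3 immortalized mouse embryonic fibroblast lines, before and during inhibition of the growth-promoting kinase complex mTORC1. The set was a list of 31 genes chosen for their place in the pathway. A probe set naming the gene alone was found for 28 of them, among 18194 genes measured. Where a gene had several probe sets, the brightest on average across the 25 arrays stands for it. Acat2, Nr1h2 and Soat1 were not analysed here.

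The Tsc1-null line (Tsc1-/-) kept p53 (p53+/+) and had been immortalized by the 3T3 protocol. The Tsc2-null line (Tsc2-/- p53-/-) came from a littermate of the embryo behind the wild-type line (Tsc2+/+ p53-/-). All cells were starved of serum for 24 h. The null lines received the mTORC1 inhibitor rapamycin (20 nM), with 2 plates per line collected after 2 h, 6 h, 12 h and 24 h, or the solvent DMSO as vehicle for 24 h, with 3 plates per line. The wild-type line is represented by 3 vehicle plates, and no wild-type rapamycin plate was used here. Messenger RNA was measured on 1 Affymetrix mouse oligonucleotide array per plate. Each genotype was 1 line, so genotype cannot be told apart from line, and p-values measure the spread between plates. A free-text label gives 14 h and 11 h for the Tsc1-null samples whose other labels give 24 h and 12 h, and the hours of the other labels were used.

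Cells make cholesterol from acetyl units through mevalonate, squalene and lanosterol, and import it in lipoproteins through surface receptors. When membranes of the endoplasmic reticulum are poor in sterol, the escort protein SCAP carries the transcription factor SREBP2 to the Golgi, where it is cut loose to switch on synthesis and uptake genes, and INSIG proteins hold the pair back when sterol is plentiful. Sterol excess acts through the LXR receptors, which switch on the exporters ABCA1 and ABCG1. The TSC1-TSC2 complex restrains mTORC1, and mTORC1 is known to promote SREBP activity.

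The median log2 value of an array was 6.26 to 6.41, and replicate arrays correlated at 0.996 to 0.998. Tsc1 message averaged 7.11 ± 0.24 in Tsc1-null cells and 8.19 ± 0.12 in wild-type cells (SD, n = 3 each), and Tsc2 message averaged 9.49 ± 0.04 in Tsc2-null cells and 9.70 ± 0.03 in wild-type cells. Over all arrays Tsc1 lay at 6.51 to 7.38 in the Tsc1-null, 7.78 to 8.87 in the Tsc2-null and 8.11 to 8.33 in the wild-type line, and Tsc2 at 9.58 to 9.98 in the Tsc1-null, 7.85 to 9.59 in the Tsc2-null and 9.67 to 9.74 in the wild-type line. With vehicle, Tsc1 was 0.58 above wild type in Tsc2-null cells. The sources used here place neither probe set relative to the deleted part, so these levels are no check of genotype. Of 10 fibroblast markers, 9 in Tsc1-null, 8 in Tsc2-null and 10 in wild-type cells lay above the median gene. Thy1 (-3.15 and -3.96), Lum (-2.34 and -1.91) and Pdgfrb (-0.88 and -2.47) were lower in Tsc1-null and Tsc2-null cells. Col1a2 and Vim were also called lower in both, Col1a1 (-0.46) and Dcn (-0.92) in Tsc1-null and Pdgfra (-0.27) in Tsc2-null cells. Pdgfra (0.55) and Fn1 (0.26) were called higher in Tsc1-null cells, and Col3a1 (0.42) and Dcn (0.25) in Tsc2-null cells. Of 5 epithelial markers, 1 in Tsc1-null, 4 in Tsc2-null and 2 in wild-type cells lay above the median gene level of 7.34. In Tsc2-null cells Krt19 was 6.52 and Cdh1 4.19 above wild type, while Krt18 (a level of 7.70, against 9.30 in wild type) and Epcam (a difference of -0.39) were called lower. In Tsc1-null cells Krt18 was -4.18 from wild type and the adipocyte gene Fabp4 3.14 above it. The other adipocyte markers measured, Adipoq (0.01) and Cidec (-0.19), were not called there. The part of these marker differences in the results was not tested.

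With vehicle, the null lines were compared with wild-type cells to ask how sterol genes stand in lines without Tsc1 or Tsc2. Most late synthesis enzymes and the lipoprotein receptor gene Vldlr were higher in both null lines, and the cholesterol exporter genes Abca1 and Abcg1 were lower in both. A gene counts as called when the limma test, adjusted by Benjamini-Hochberg over all genes, gave an adjusted p below 0.05. In Tsc1-null cells 18 of 28 genes were called higher (21.3% of all genes were) and 5 lower (20.8% of all genes). In Tsc2-null cells 11 of 28 were called higher (23.6% of all genes) and 9 lower (21.3%). The median difference of the set was 0.31 in Tsc1-null and 0.01 in Tsc2-null cells on the log2 scale, beside -0.02 and -0.01 over all genes. Both comparisons share the wild-type arrays. The Tsc1-null line kept p53 and the wild-type line lacks it, so that comparison cannot tell loss of Tsc1 from p53 status. In whole-plate RNA a shift in the mix of cells cannot be told apart from a change per cell.

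**Figure D1:**
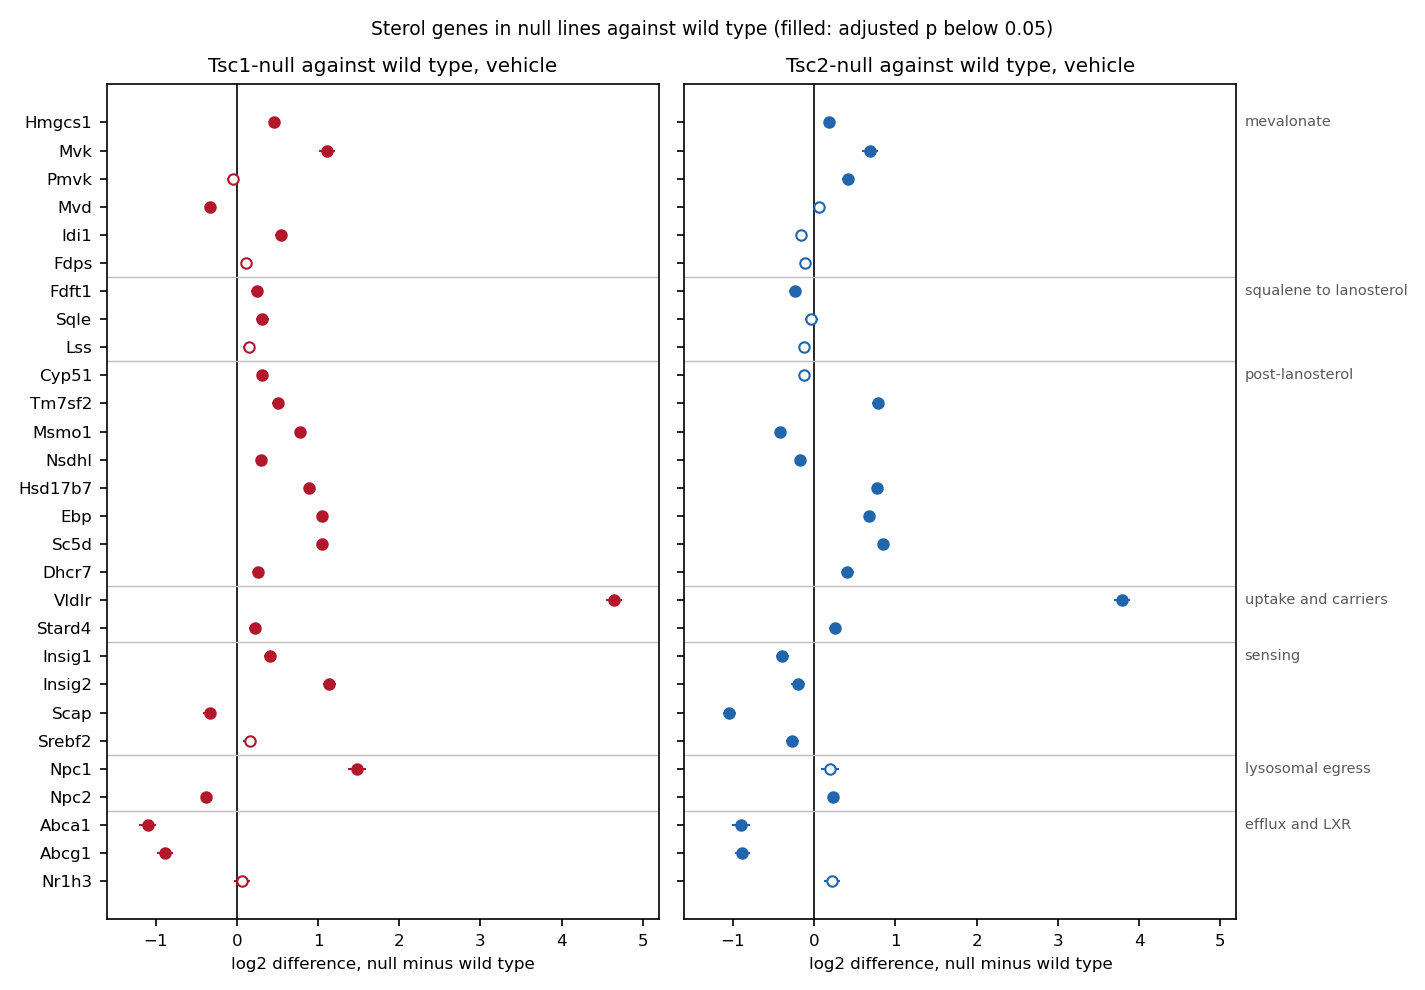
Log2 difference of each null line from wild-type cells with vehicle, for the 28 genes grouped by pathway step, the Tsc1-null line on the left and the Tsc2-null line on the right. Points are fitted differences from 3 arrays a group, bars are 1 SE, and filled points had an adjusted p below 0.05. Vldlr stands far to the right in both panels, at 4.64 and 3.80, and Abca1 and Abcg1 lie left of 0 in both.

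All 8 enzymes after lanosterol were called higher in Tsc1-null cells, and 5 of 8 were in Tsc2-null cells, where 2 were lower. Sc5d, the lathosterol desaturase, had log2 levels of 11.87, 11.88 and 11.89 in Tsc1-null cells, 11.71, 11.62 and 11.70 in Tsc2-null cells, and 10.82, 10.82 and 10.86 in wild-type cells. The wild-type arrays did not overlap either null line, and the differences were 1.05 (SE 0.06, adjusted p = 7.3e-13) and 0.85 (SE 0.06, adjusted p = 2.7e-11) in the same order. Hsd17b7, a sterol ketone reductase, read 10.37, 10.26 and 10.38 in Tsc1-null cells, 10.27, 10.19 and 10.21 in Tsc2-null cells, and 9.48, 9.46 and 9.40 in wild-type cells. Ebp, the isomerase of the sterol ring, was 1.05 and 0.68 above wild type, and Tm7sf2, the C14 reductase, was 0.51 and 0.78 above it. Dhcr7, which makes the last double-bond change to cholesterol, was 0.26 and 0.41 above it. With the authors' deposited log2 ratios the Dhcr7 differences were 0.20 and -0.03 and neither was called, and the Tsc1-null difference of Tm7sf2 was 0.25 and not called.

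The lines took opposite sides of wild type for some genes of the same stretch. Msmo1, the C4 methyl oxidase, was 0.78 (SE 0.06, adjusted p = 5.3e-10) in Tsc1-null cells and -0.42 (SE 0.06, adjusted p = 7.1e-06) in Tsc2-null cells. Nsdhl, which acts with Msmo1 in removing methyl groups, differed by 0.30 and -0.18, and Fdft1, the squalene synthase gene, by 0.24 and -0.24. The Nsdhl difference in Tsc2-null cells became -0.16 (adjusted p = 0.054) without the third Tsc2-null plate. The Fdft1 difference was 0.02 (adjusted p = 0.86) in Tsc1-null cells with the mean of all probe sets and -0.18 (adjusted p = 0.069) in Tsc2-null cells with the deposited ratios. Tested directly between the null lines, Msmo1 was 1.20 (SE 0.06, adjusted p = 3e-13) higher in Tsc1-null cells, Nsdhl 0.48 and Fdft1 0.49. In that comparison 18 of 28 genes were called higher in Tsc1-null cells (20.7% of all genes) and 4 lower (22.7% of all genes).

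Early steps differed less evenly. Mvk, the mevalonate kinase gene, read 11.21, 11.32 and 11.17 in Tsc1-null cells, 10.75, 10.78 and 10.90 in Tsc2-null cells, and 10.16, 10.07 and 10.14 in wild-type cells. All 3 lines were apart, and Mvk was 1.11 and 0.69 above wild type. Hmgcs1, which makes the HMG-CoA entering the pathway, read 13.55, 13.51 and 13.58 in Tsc1-null cells, 13.32, 13.24 and 13.26 in Tsc2-null cells, and 13.03, 13.11 and 13.12 in wild-type cells. The ranges did not overlap, but the Tsc2-null difference was small, at 0.18 (SE 0.06, adjusted p = 0.016), and fell short without wild-type plate 1 (0.15, adjusted p = 0.065) or Tsc2-null plate 1 (0.16, adjusted p = 0.07). It was 0.13 with the mean of all probe sets and 0.04 with the deposited ratios, uncalled in both. In Tsc1-null cells Hmgcs1 differed by 0.46 (SE 0.06, adjusted p = 1.2e-06).

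Idi1, the isopentenyl diphosphate isomerase gene, read 12.88, 12.84 and 12.97 in Tsc1-null cells, 12.19, 12.13 and 12.27 in Tsc2-null cells, and 12.26, 12.37 and 12.42 in wild-type cells. Tsc1-null arrays lay above the others (0.55, SE 0.07, adjusted p = 1.3e-06), while the Tsc2-null difference of -0.16 missed the threshold with an adjusted p of 0.087. Sqle, the squalene epoxidase gene, read 12.97, 12.98 and 12.80 in Tsc1-null cells, 12.60, 12.55 and 12.54 in Tsc2-null cells, and 12.55, 12.62 and 12.62 in wild-type cells. Tsc2-null and wild-type arrays overlapped for Sqle, with a difference of -0.04 (adjusted p = 0.77), and the Tsc1-null difference was 0.32 (SE 0.08, adjusted p = 0.0019). Mvd, the decarboxylase at the end of the mevalonate steps, was the only enzyme called lower in Tsc1-null cells (-0.33, SE 0.07, adjusted p = 0.00045), and Pmvk, the kinase before it, was 0.42 (SE 0.07, adjusted p = 4.6e-05) higher in Tsc2-null cells.

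Vldlr, the very-low-density lipoprotein receptor gene, had the largest difference of the set in both lines. Its log2 level was 10.69, 10.67 and 10.82 in Tsc1-null cells, 9.90, 9.86 and 9.88 in Tsc2-null cells, and 5.95, 6.05 and 6.25 in wild-type cells. The differences were 4.64 (SE 0.10, adjusted p = 3.6e-20) and 3.80 (SE 0.10, adjusted p = 1.2e-18) on the log2 scale. The wild-type level lay below the median gene level of 7.34, and no detection call was used here. All 6 Vldlr probe sets were called higher in both lines, by 1.64 to 5.12 in Tsc1-null and 1.19 to 4.29 in Tsc2-null cells. Stard4, which encodes a cytosolic sterol carrier, read 11.28, 11.21 and 11.36 in Tsc1-null cells, 11.41, 11.21 and 11.32 in Tsc2-null cells, and 11.05, 11.05 and 11.08 in wild-type cells. These small gaps of 0.23 and 0.25 were called (adjusted p = 0.011 and 0.0043). The Tsc1-null gap in Stard4 became 0.19 (adjusted p = 0.061) without Tsc1-null plate 3 and 0.14 (adjusted p = 0.066) with quantile normalization.

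The sensing genes separated the lines. Insig2, one of the pair of sterol-responsive retention proteins, read 11.14, 11.18 and 11.28 in Tsc1-null cells, 9.87, 9.80 and 9.91 in Tsc2-null cells, and 10.22, 10.03 and 9.92 in wild-type cells. Tsc1-null arrays stood above all others (1.14, SE 0.08, adjusted p = 6.1e-11), and all 3 Insig2 probe sets were called higher there. The Tsc2-null difference of -0.20 (adjusted p = 0.048) did not last when any of 5 of the 6 plates was left out, lying between -0.22 and -0.12, nor under 5 other settings, the replicate block (adjusted p = 0.061) among them. Insig1, the partner retention gene, read 10.03, 9.98 and 9.91 in Tsc1-null cells, 9.25, 9.02 and 9.25 in Tsc2-null cells, and 9.48, 9.53 and 9.68 in wild-type cells. It was 0.41 (SE 0.08, adjusted p = 0.00012) in Tsc1-null and -0.39 (SE 0.08, adjusted p = 0.00017) in Tsc2-null cells.

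Scap, the escort gene, read 10.17, 10.02 and 9.90 in Tsc1-null cells, 9.30, 9.38 and 9.26 in Tsc2-null cells, and 10.48, 10.30 and 10.30 in wild-type cells. Tsc2-null arrays lay lowest, with a difference of -1.04 (SE 0.08, adjusted p = 1.7e-10), against -0.33 (SE 0.08, adjusted p = 0.0014) in Tsc1-null cells. A dim second Scap probe set was not called in either line (-0.10 and -0.17). Srebf2, the gene of SREBP2 itself, read 11.24, 11.22 and 11.09 in Tsc1-null cells, 10.89, 10.68 and 10.69 in Tsc2-null cells, and 11.01, 11.02 and 11.04 in wild-type cells. The Tsc1-null difference of 0.16 was not called (adjusted p = 0.11), and the Tsc2-null arrays lay lower (-0.27, SE 0.08, adjusted p = 0.0057).

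In lysosomal egress, Npc1, which encodes the membrane protein that releases cholesterol from lysosomes, read 10.17, 10.04 and 9.91 in Tsc1-null cells, 8.82, 8.73 and 8.71 in Tsc2-null cells, and 8.76, 8.43 and 8.49 in wild-type cells. Only the Tsc1-null arrays lay apart (1.48, SE 0.11, adjusted p = 7.3e-11), and the Tsc2-null difference was 0.19 (adjusted p = 0.15). Npc2, the soluble partner that hands cholesterol to NPC1, differed by -0.38 (SE 0.06, adjusted p = 2.5e-05) and 0.23 (SE 0.06, adjusted p = 0.0047). The Tsc2-null value was 0.03 and not called with the deposited ratios.

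Among the efflux genes, Abca1, which loads cholesterol onto apolipoprotein acceptors, read 7.70, 7.46 and 7.72 in Tsc1-null cells, 7.90, 7.88 and 7.69 in Tsc2-null cells, and 8.81, 8.78 and 8.58 in wild-type cells. Both null lines lay below every wild-type array, with differences of -1.10 (SE 0.11, adjusted p = 9.4e-09) and -0.90 (SE 0.11, adjusted p = 1.7e-07), and all 3 Abca1 probe sets were called lower in both. Abcg1, which exports cholesterol to high-density lipoprotein, read 6.69, 6.49 and 6.62 in Tsc1-null cells, 6.65, 6.65 and 6.51 in Tsc2-null cells, and 7.64, 7.44 and 7.38 in wild-type cells. Its differences were -0.88 (SE 0.09, adjusted p = 5.1e-08) and -0.88 (SE 0.09, adjusted p = 4.3e-08), but a second, dimmer Abcg1 probe set gave 0.06 and -0.11 and was not called. Nr1h3, the LXR-alpha gene, was not called in either line (0.07 and 0.22, adjusted p = 0.65 and 0.081).

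Rapamycin was then set against vehicle within each null line, asking how far and how soon these messages changed with the inhibitor. All 17 measured synthesis enzymes were called lower in both lines at 12 h and at 24 h. At 12 h in Tsc1-null cells this depended on the setting for some: with the deposited ratios Fdps was 0.03, Msmo1 -0.10, Tm7sf2 -0.18 and Hmgcs1 -0.26, and with the mean of all probe sets Fdps was -0.20, Fdft1 -0.12 and Msmo1 -0.30, none of them called. At 24 h their median log2 difference was -0.68 in Tsc1-null and -1.29 in Tsc2-null cells. The median over all genes was -0.008 and -0.0001 in the same order. Vldlr, Stard4 and Npc1 fell with them, Abca1 rose, and neither Srebf2 nor Npc2 was called lower at any time in either line. The 4 times of 1 line share its vehicle arrays. Vehicle was given for 24 h, so the 2 h, 6 h and 12 h groups have no vehicle of equal length.

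In Tsc1-null cells 1 of 28 genes was called higher at 2 h (1.95% of all genes) and 0 lower (1.32%). At an unadjusted limma p below 0.05, 2 of the 28 were lower at 2 h. At 6 h 1 was higher (9.49%) and 17 lower (13%), at 12 h 0 were higher (1 at an unadjusted limma p, 12% of all genes) and 20 lower (11.7%), and at 24 h 3 were higher (11.6%) and 21 lower (18%). In Tsc2-null cells 2 were higher at 2 h (1.01%) and 4 lower (1.19%), with 12 lower at an unadjusted limma p below 0.05. At 6 h 3 were higher (11.6%) and 20 lower (9.69%), at 12 h 3 were higher (16.4%) and 21 lower (17.7%), and at 24 h 3 were higher (17.4%) and 21 lower (18.1%). An F test over the 4 times called 22 of 28 in Tsc1-null cells (38.1% of all genes) and 25 of 28 in Tsc2-null cells (39.9%).

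**Figure D2:**
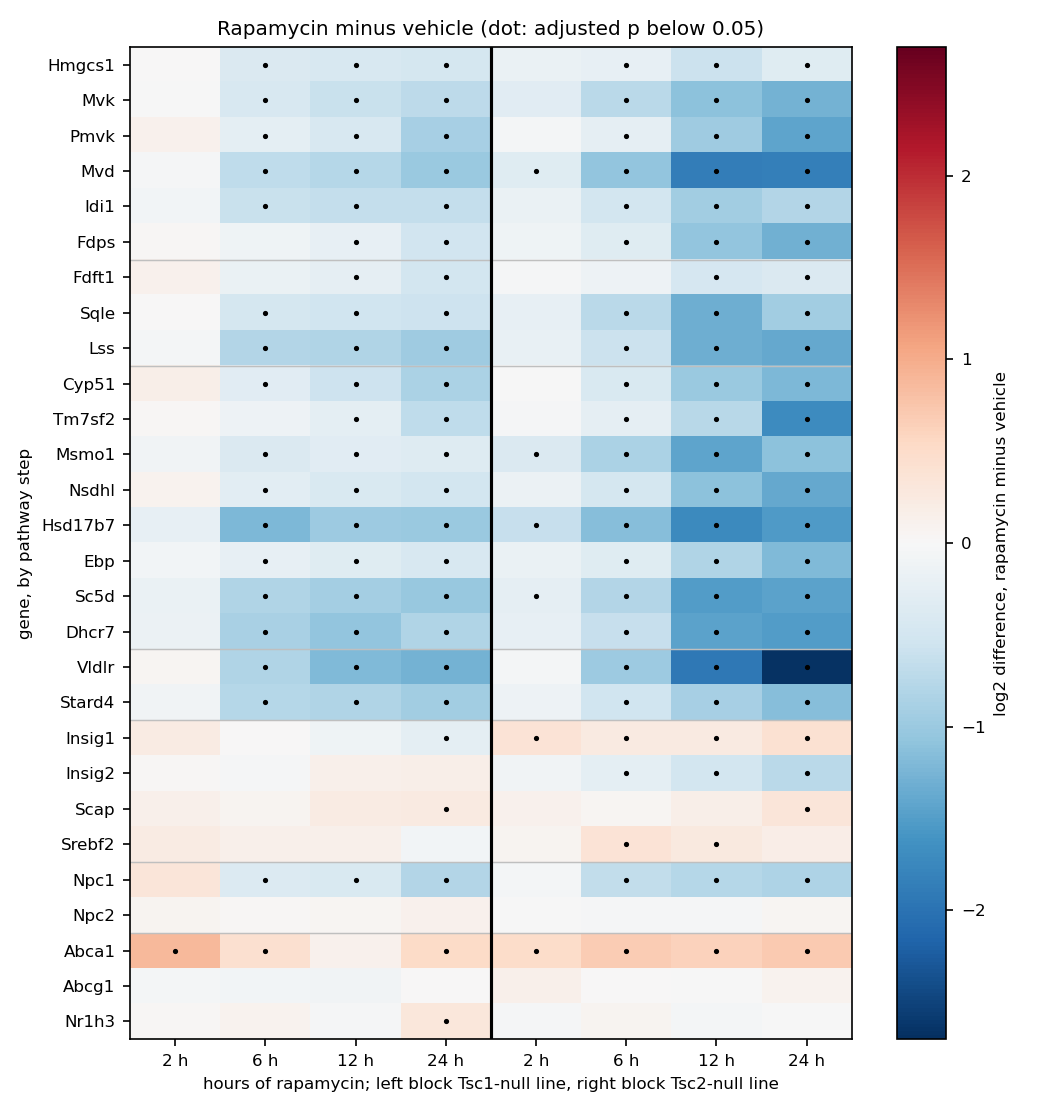
Log2 difference between rapamycin and vehicle for the 28 genes, rows by pathway step and columns by hours of rapamycin, with the Tsc1-null line in the left block and the Tsc2-null line in the right block. Colour gives the difference, blue for lower and red for higher with rapamycin, and a dot marks an adjusted p below 0.05. The 17 enzymes form a blue block from 6 h on, which at 12 h is deeper on the right for all 17, with Vldlr darkest at -2.66, and Abca1 is red.

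Few enzymes were called at 2 h and most were by 6 h. At 2 h 0 of 17 enzymes were called lower by limma in Tsc1-null cells (2 at an unadjusted p). In Tsc2-null cells 4 of 17 were, Hsd17b7 (-0.62, SE 0.08, adjusted p = 3.2e-05), Msmo1 (-0.39), Mvd (-0.33) and Sc5d (-0.25). At an unadjusted limma p below 0.05, 12 of the 17 were lower there and 0 higher. The 17 differences in Tsc2-null cells ran from -0.62 to -0.01, with a median of -0.18. Only Hsd17b7 was called at 2 h whichever of the 5 plates was left out, and leaving out 1 plate gave 2 to 4 genes in all. Msmo1 became -0.38 (adjusted p = 0.056) without the first 2 h plate, and Mvd and Sc5d missed the threshold whichever of the 5 plates was left out, at -0.37 to -0.30 and -0.28 to -0.23. At 6 h 14 of 17 enzymes had fallen in Tsc1-null and 16 of 17 in Tsc2-null cells, of which 11 and 12 kept their call whichever plate was left out. With the deposited ratios Msmo1 at 6 h in Tsc1-null cells was 0.01 and not called, against -0.38 with the RMA values. At 12 h Fdps, Fdft1 and Tm7sf2 lost their Tsc1-null call without 1 plate or another (-0.31 to -0.19).

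Sc5d in Tsc1-null cells read 11.87, 11.88 and 11.89 with vehicle, 11.69 and 11.70 at 2 h, 11.09 and 11.03 at 6 h, 10.99 and 10.94 at 12 h, and 10.82 and 10.87 at 24 h. In Tsc2-null cells Sc5d read 11.71, 11.62 and 11.70 with vehicle, 11.43 and 11.43 at 2 h, 10.96 and 10.80 at 6 h, 10.19 and 10.14 at 12 h, and 10.23 and 10.24 at 24 h. At every time no rapamycin array overlapped vehicle in either line, and the 24 h differences were -1.03 (SE 0.06, adjusted p = 6.1e-11) and -1.44 (SE 0.06, adjusted p = 2e-13) in the same order. Mvd read 9.62 and 9.70 at 24 h, against 10.63, 10.71 and 10.68 with vehicle in Tsc1-null cells. In Tsc2-null cells Mvd read 9.35 and 9.07 at 24 h, against 11.05, 11.04 and 11.08 with vehicle. The Mvd falls, -1.01 (SE 0.08, adjusted p = 1.4e-09) and -1.84 (SE 0.08, adjusted p = 1e-13), were the largest of the mevalonate steps in each line, and its second probe set gave -1.10 and -1.86.

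Hsd17b7 read 9.28 and 9.41 at 24 h, against 10.37, 10.26 and 10.38 with vehicle in Tsc1-null cells. In Tsc2-null cells it read 8.68 and 8.71 at 24 h, against 10.27, 10.19 and 10.21 with vehicle. The groups did not overlap, with differences of -0.99 (SE 0.08, adjusted p = 1.4e-09) and -1.53 (SE 0.08, adjusted p = 9.5e-13). Tm7sf2 read 9.22 and 9.25 at 24 h, against 9.92, 9.89 and 9.94 with vehicle in Tsc1-null cells, a difference of -0.68 (SE 0.08, adjusted p = 7.5e-07). In Tsc2-null cells it read 8.41 and 8.57 at 24 h, against 10.15, 10.13 and 10.29 with vehicle, a difference of -1.70 (SE 0.08, adjusted p = 4.1e-13). Tm7sf2 moved late: its Tsc2-null differences were -0.02, -0.24, -0.75 and -1.70 at 2, 6, 12 and 24 h.

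Sqle in Tsc1-null cells read 12.97, 12.98 and 12.80 with vehicle, 12.95 and 12.92 at 2 h, 12.46 and 12.42 at 6 h, 12.40 and 12.35 at 12 h, and 12.34 and 12.37 at 24 h. In Tsc2-null cells Sqle read 12.60, 12.55 and 12.54 with vehicle, 12.28 and 12.40 at 2 h, 11.80 and 11.87 at 6 h, 11.43 and 11.06 at 12 h, and 11.68 and 11.55 at 24 h. Sqle was lowest at 24 h in the Tsc1-null line and at 12 h in the Tsc2-null line, a difference between times that was not tested. Hmgcs1 read 13.00 and 13.16 at 24 h, against 13.55, 13.51 and 13.58 with vehicle in Tsc1-null cells (-0.47, SE 0.07, adjusted p = 1e-05). In Tsc2-null cells Hmgcs1 read 12.92 and 12.97 at 24 h, against 13.32, 13.24 and 13.26 with vehicle (-0.33, SE 0.07, adjusted p = 0.00047). These were among the smaller falls, and of the 5 Hmgcs1 probe sets 3 were called lower in Tsc1-null cells and 3 in Tsc2-null cells.

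Idi1 read 12.19 and 12.31 at 24 h, against 12.88, 12.84 and 12.97 with vehicle in Tsc1-null cells (-0.65, SE 0.08, adjusted p = 1.6e-06). In Tsc2-null cells it read 11.38 and 11.43 at 24 h, against 12.19, 12.13 and 12.27 with vehicle (-0.79, SE 0.08, adjusted p = 5.6e-08). A second Idi1 probe set gave -0.13 in Tsc1-null cells, which was not called, and -0.91 in Tsc2-null cells, which was. The other enzymes at 24 h ranged from -0.97 (Lss, lanosterol synthase) to -0.36 (Msmo1) in Tsc1-null cells and from -1.52 (Dhcr7) to -0.39 (Fdft1) in Tsc2-null cells. All 17 enzyme calls at 24 h held in both lines whichever plate was left out. Other settings ended some: in Tsc2-null cells Fdft1 was -0.12 (adjusted p = 0.15) with the mean of all probe sets and Hmgcs1 -0.27 (adjusted p = 0.077) with the deposited ratios, and in Tsc1-null cells Fdps was -0.29 and Msmo1 -0.17 with the deposited ratios.

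The time courses differed in shape. From 6 to 12 h the mean of 15 of 17 enzymes dropped further in Tsc1-null cells and that of all 17 did in Tsc2-null cells. From 12 to 24 h it dropped further for 15 and for 9 enzymes. At 24 h 2 of 17 enzymes in Tsc1-null cells and 13 of 17 in Tsc2-null cells lay more than 1 log2 unit below vehicle. These are counts of group means, with no test between times. Shares over all genes were not computed beside them, so they only describe the enzymes. The free-text hours of 11 h and 14 h for the Tsc1-null 12 h and 24 h samples also bear on them.

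**Figure D3:**
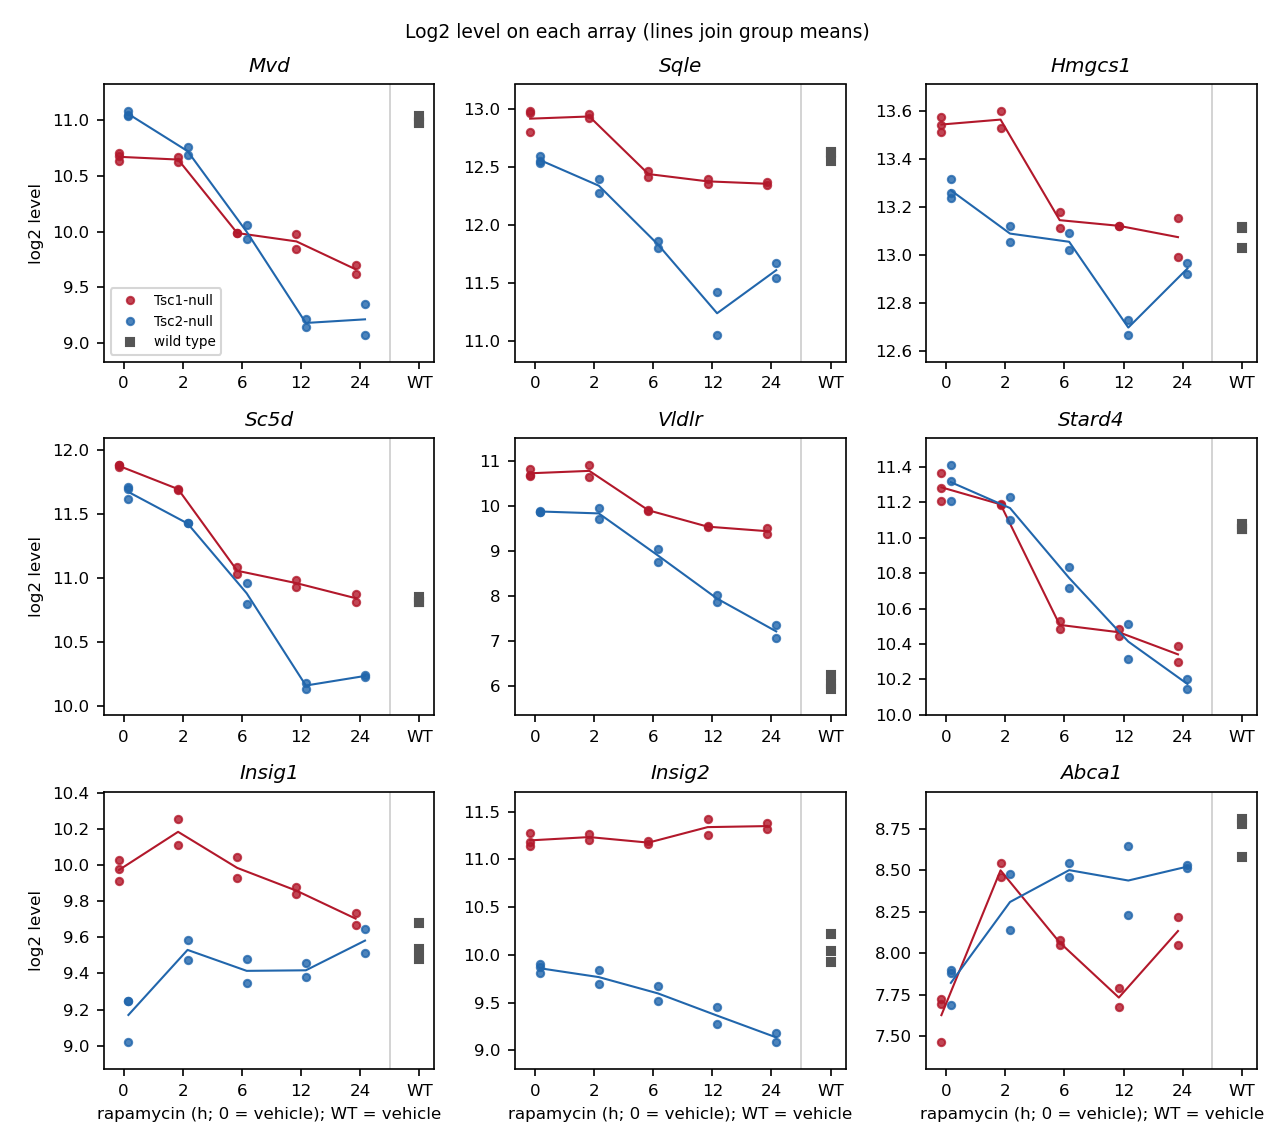
Log2 level on each array of 9 genes at 0 (vehicle), 2, 6, 12 and 24 h of rapamycin in the Tsc1-null (red) and Tsc2-null (blue) lines, with the 3 wild-type vehicle arrays (grey squares) on the right of each panel, and hours spaced evenly. Points are arrays and lines join group means, and each panel has its own axis. The enzymes, Vldlr and Stard4 are lower at 12 h than with vehicle, Insig1 and Insig2 part between the lines, and Abca1 peaks at 2 h in the Tsc1-null line.

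In uptake, Vldlr fell in both lines. In Tsc1-null cells it read 10.69, 10.67 and 10.82 with vehicle, 10.65 and 10.91 at 2 h, 9.92 and 9.89 at 6 h, 9.53 and 9.56 at 12 h, and 9.38 and 9.51 at 24 h. In Tsc2-null cells it read 9.90, 9.86 and 9.88 with vehicle, 9.72 and 9.95 at 2 h, 9.04 and 8.77 at 6 h, 7.87 and 8.02 at 12 h, and 7.07 and 7.36 at 24 h. The 2 h arrays lay around the vehicle arrays, and from 6 h on all lay below them. The 24 h differences were -1.28 (SE 0.11, adjusted p = 6.8e-09) and -2.66 (SE 0.11, adjusted p = 7.6e-14), the largest of the set in each line, and all 6 Vldlr probe sets were called lower in both. Stard4 read 10.30 and 10.39 at 24 h, against 11.28, 11.21 and 11.36 with vehicle in Tsc1-null cells (-0.94, SE 0.08, adjusted p = 4.6e-09). In Tsc2-null cells Stard4 read 10.15 and 10.20 at 24 h, against 11.41, 11.21 and 11.32 with vehicle (-1.14, SE 0.08, adjusted p = 1.2e-10). Its 3 probe sets were all called lower in both lines.

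Messages of the sensing machinery moved in mixed directions. Srebf2 read 11.09 and 11.13 at 24 h, against 11.24, 11.22 and 11.09 with vehicle in Tsc1-null cells, where it was not called at any time (-0.07 at 24 h, adjusted p = 0.61). In Tsc2-null cells Srebf2 read 11.05 and 11.18 at 6 h, against 10.89, 10.68 and 10.69 with vehicle. It was 0.36 (SE 0.09, adjusted p = 0.0035) higher at 6 h, 0.26 at 12 h (adjusted p = 0.023) and 0.18 at 24 h (adjusted p = 0.13). The 6 h value became 0.30 (adjusted p = 0.064) without the second 6 h plate, and the 12 h value 0.19 to 0.23 without vehicle plate 2 or 3 or the first 12 h plate, none of them called.

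Insig1 in Tsc2-null cells read 9.25, 9.02 and 9.25 with vehicle, 9.59 and 9.47 at 2 h, 9.35 and 9.48 at 6 h, 9.46 and 9.38 at 12 h, and 9.52 and 9.65 at 24 h. Every rapamycin array lay above every vehicle array, and the differences at 2, 6, 12 and 24 h were 0.36, 0.24, 0.25 and 0.41 (adjusted p = 0.028, 0.048, 0.03 and 0.00052). Vehicle plate 2 was the low one: without it the 2, 6 and 12 h differences were 0.28, 0.17 and 0.17 and were not called, nor were they without either rapamycin plate of the time (0.18 to 0.42). The 24 h call held without any 1 plate. In Tsc1-null cells Insig1 read 10.03, 9.98 and 9.91 with vehicle, 10.11 and 10.26 at 2 h, 10.04 and 9.93 at 6 h, 9.88 and 9.84 at 12 h, and 9.67 and 9.74 at 24 h. There the 24 h arrays lay below vehicle (-0.27, SE 0.09, adjusted p = 0.021), a call lost without vehicle plate 1 (-0.24, adjusted p = 0.068) or either 24 h plate (-0.24 and -0.30). It was also lost with the replicate block (adjusted p = 0.052), with quantile normalization (-0.17) and with the deposited ratios (-0.17).

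Insig2 read 11.38 and 11.32 at 24 h, against 11.14, 11.18 and 11.28 with vehicle in Tsc1-null cells (0.15, SE 0.09, adjusted p = 0.26). In Tsc2-null cells Insig2 read 9.19 and 9.08 at 24 h, against 9.87, 9.80 and 9.91 with vehicle (-0.73, SE 0.09, adjusted p = 8.9e-07), and all 3 Insig2 probe sets were called lower there. In Tsc1-null cells 1 of the 3 probe sets was called higher, by 0.42. Scap read 10.23 and 10.32 at 24 h, against 10.17, 10.02 and 9.90 with vehicle in Tsc1-null cells (0.25, SE 0.09, adjusted p = 0.038). In Tsc2-null cells Scap read 9.69 and 9.62 at 24 h, against 9.30, 9.38 and 9.26 with vehicle (0.34, SE 0.09, adjusted p = 0.004). These rises were small: the first was lost without vehicle plate 2 or 3 or either 24 h plate (0.18 to 0.29), the second without the first 24 h plate (0.30, adjusted p = 0.05). With the mean of both probe sets they were 0.13 and 0.15 and not called, and the first was also lost with the replicate block (adjusted p = 0.088).

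Npc1 read 9.13 and 9.37 at 24 h, against 10.17, 10.04 and 9.91 with vehicle in Tsc1-null cells (-0.79, SE 0.12, adjusted p = 1.7e-05). In Tsc2-null cells Npc1 read 8.01 and 7.82 at 24 h, against 8.82, 8.73 and 8.71 with vehicle (-0.84, SE 0.12, adjusted p = 4.8e-06). Both falls left no overlap with vehicle, while Npc2, its partner in the lysosome, was not called at any time in either line (0.12 and 0.06 at 24 h). For Npc2, 1 of 4 probe sets was called higher and 1 lower in Tsc1-null cells at 24 h.

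Abca1 in Tsc1-null cells read 7.70, 7.46 and 7.72 with vehicle, 8.46 and 8.54 at 2 h, 8.05 and 8.08 at 6 h, 7.68 and 7.79 at 12 h, and 8.05 and 8.22 at 24 h. It was the only gene of the set called at 2 h in that line (0.87, SE 0.12, adjusted p = 9.9e-05). The 6 h difference of 0.44 was lost without either 6 h plate (0.45 and 0.42), and the mean lay at 0.11 by 12 h (adjusted p = 0.64) and at 0.51 (SE 0.12, adjusted p = 0.0018) by 24 h. In Tsc2-null cells Abca1 read 7.90, 7.88 and 7.69 with vehicle, 8.14 and 8.48 at 2 h, 8.54 and 8.46 at 6 h, 8.65 and 8.23 at 12 h, and 8.53 and 8.51 at 24 h. All those rapamycin arrays lay above vehicle, with differences of 0.49, 0.68, 0.62 and 0.70 at 2, 6, 12 and 24 h, and the 2 h call was lost without vehicle plate 2 or 3 or the second 2 h plate (0.32 to 0.52), and with the replicate block (0.46, adjusted p = 0.08). The 24 h rise rested on the brightest probe set in Tsc1-null cells, where the others gave 0.08 and 0.13, and on 2 of 3 probe sets in Tsc2-null cells.

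Abcg1 read 6.55 and 6.68 at 24 h, against 6.69, 6.49 and 6.62 with vehicle in Tsc1-null cells. In Tsc2-null cells Abcg1 read 6.87 and 6.52 at 24 h, against 6.65, 6.65 and 6.51 with vehicle. Its arrays overlapped in both lines, and it was called at no time. Nr1h3 differed by 0.30 (SE 0.11, adjusted p = 0.046) at 24 h in Tsc1-null cells, which became 0.08 (adjusted p = 0.68) without the second 24 h plate and 0.28 without vehicle plate 2 or 3, and by -0.02 in Tsc2-null cells.

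Whether the lines differed in their response was tested as the Tsc1-null response minus the Tsc2-null response, so that a positive value means a smaller fall, or a larger rise, in Tsc1-null cells. At 2 h 0 of 28 genes were called in either direction (0.044% of all genes higher and 0.0605% lower), and 7 of 28 had an unadjusted limma p below 0.05. At 6 h Msmo1 alone was called higher (0.47, SE 0.10, adjusted p = 0.0097), with 0 lower (1.28% and 2.87% of all genes), 2 being lower at an unadjusted limma p. That call was lost without the first 6 h plate of the Tsc2-null line (0.43, adjusted p = 0.067) or of the Tsc1-null line (0.45, adjusted p = 0.059), and was 0.09 with the mean of all probe sets. At 12 h 16 were called higher (5.86% of all genes) and 0 lower (5.38%, with 2 at an unadjusted limma p), and at 24 h 16 higher (8.13%) and 1 lower (12%). Among the 17 enzymes 14 were called at 12 h and 14 at 24 h, all with the larger fall in Tsc2-null cells. The Tsc1-null samples of these times carry the free-text hours 11 h and 14 h, and the part of that conflict was not tested.

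**Figure D4:**
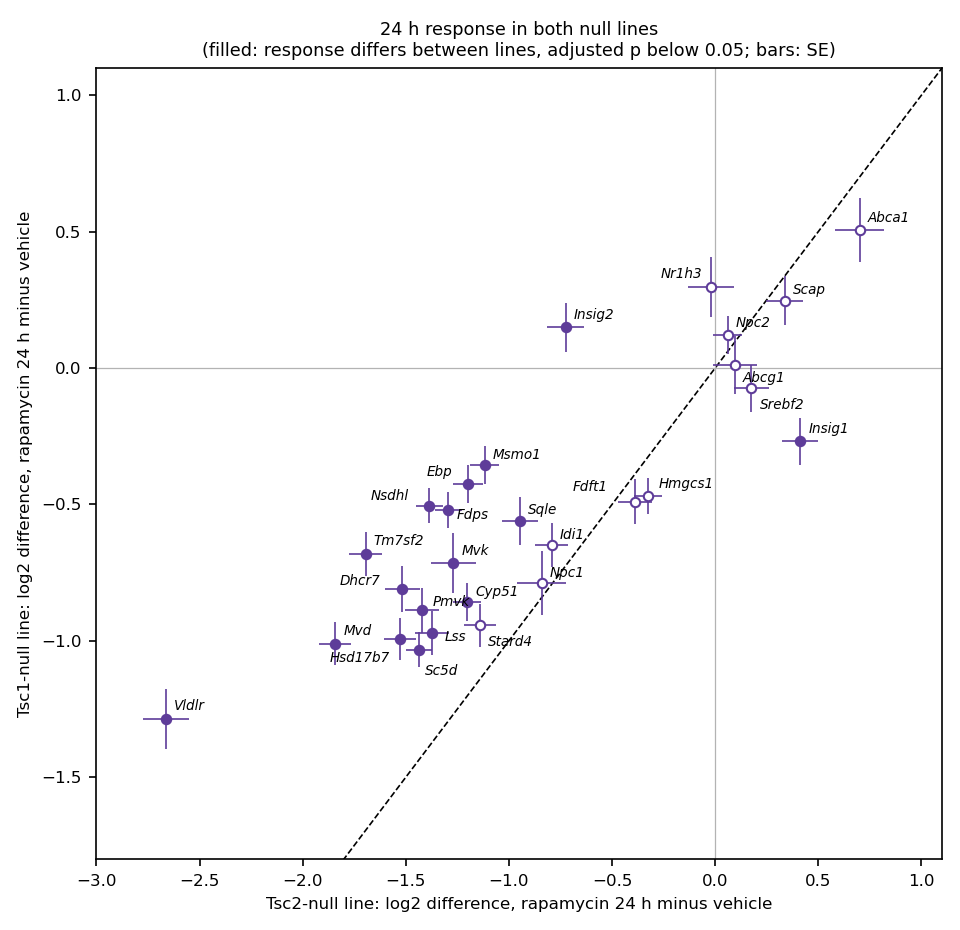
Log2 difference between 24 h of rapamycin and vehicle in the Tsc1-null line (vertical axis) against the Tsc2-null line (horizontal axis) for the 28 genes, with bars of 1 SE and a dashed line of equal response. Filled points are genes whose response differed between the lines with an adjusted p below 0.05. Most enzymes lie above the line, with a larger fall in the Tsc2-null line, Hmgcs1, Fdft1 and Idi1 lie near it, and Insig1 and Insig2 lie on opposite sides of it.

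At 24 h the largest differences in response among enzymes were in Tm7sf2 (1.01, SE 0.11, adjusted p = 8.3e-07), Nsdhl (0.88) and Mvd (0.83). Msmo1 fell by 0.36 in Tsc1-null and by 1.12 in Tsc2-null cells, a difference of 0.76. This is the brighter of its 2 probe sets, and the mean of both, given below, was smaller and not called. Ebp gave 0.77, and Fdps, the farnesyl diphosphate synthase gene, 0.77. Vldlr had the largest difference in response of the set, at 1.38 (SE 0.16, adjusted p = 9.1e-07). Hmgcs1 (-0.14, adjusted p = 0.36), Fdft1 (-0.10, 0.64), Idi1 (0.14, 0.47) and Stard4 (0.20, 0.26) were not called.

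The sensing pair diverged in opposite ways. For Insig2 the difference in response was 0.87 (SE 0.13, adjusted p = 2.6e-05). It was called lower in Tsc2-null cells and was not called in Tsc1-null cells. For Insig1 it was -0.68 (SE 0.12, adjusted p = 0.00027), the single negative call. Abca1 (-0.19, adjusted p = 0.51) and Npc1 (0.05, adjusted p = 0.89) were not called. The weakest enzyme calls were Sqle (0.39, 0.32 to 0.40 without 1 of 5 plates), Lss (0.40, 0.33 and 0.37 without the second 24 h plate of the Tsc1-null or the Tsc2-null line) and Mvk (0.56, 0.48 and 0.35 without the same plates), each then uncalled. With the mean of all probe sets the 24 h differences in response of Msmo1 (0.20), Sc5d (0.08), Fdps (0.27) and Lss (0.26) were not called. Msmo1 and Fdps have 2 probe sets each, so these means imply a negative difference for the dimmer one of each gene. With the deposited ratios those of Mvk (0.48), Sqle (0.36) and Hsd17b7 (0.30) were not. At 12 h Mvk, Dhcr7 and Tm7sf2 likewise lost their call with 1 plate left out (0.42 to 0.57, 0.32 to 0.41, and 0.40). The 12 h differences of Msmo1 (0.57) and Fdps (0.27) were not called with the mean of all probe sets. With the deposited ratios those of Lss (0.31), Cyp51 (0.32), Tm7sf2 (0.21), Hsd17b7 (0.26) and Dhcr7 (0.31) were not.

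Set beside wild-type vehicle cells as a description, the 24 h rapamycin levels of the lines differed. In Tsc1-null cells at 24 h 10 of 17 enzymes had both arrays below all wild-type arrays, 4 overlapped them and 3 (Mvk, Msmo1 and Ebp) lay above. In Tsc2-null cells all 17 lay below. The share of all genes whose arrays lay apart in this way was not computed, so these counts only describe the enzymes and show nothing particular to them. The median gap to wild type was -0.20 and -0.99. Mvd lay -1.34 and -1.79 from wild type, and Sc5d 0.02 and -0.59. Vldlr stayed 3.36 and 1.13 above wild type, and Abca1 had mean gaps of -0.59 and -0.20. Wild-type cells with rapamycin were not analysed here.

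The measured genes of the set, whether or not they moved with rapamycin, were then read for shared promoter letters. RefSeq promoters of the GRCm38.p6 build were matched by symbol for 22 of the 28 genes. The 250 bases before the most upstream start among a gene's promoter entries were searched on both strands. For Lss, Hsd17b7 and Vldlr the gene bounds used here begin inside that window, at 76531565, 169969242 and 27216480. Part of those windows therefore lies inside the gene. The sterol element was searched only in the form TCACNCCAC, so a promoter without it may hold another form. That form was found in 1 of 22, Hmgcs1 (TCACCCCAC, bases -137 to -129), and in 1.03% of 27025 promoters. CCAAT was found in 13 of 14 synthesis enzymes (92.9%) and in 4 of 8 other genes (50%), beside 34.5% of all promoters and 35.8% of those of measured genes. The GC box GGGCGG was found in 13 of 14 enzymes (92.9%) and in 4 of 8 others (50%), beside 33% and 49.9%. A match describes letters only.

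Of the 19 synthesis and uptake genes called lower at 24 h in both lines, the sequences of 6 are shown, those with a promoter entry and the smallest p-values (the larger p of the lines was ranked), because they carry the shared fall. They run 5′ to 3′ on the gene's strand, with CCAAT or GGGCGG, or the reverse complement of either, in capitals.
Sc5d, chr9:42264301-42264550, minus strand: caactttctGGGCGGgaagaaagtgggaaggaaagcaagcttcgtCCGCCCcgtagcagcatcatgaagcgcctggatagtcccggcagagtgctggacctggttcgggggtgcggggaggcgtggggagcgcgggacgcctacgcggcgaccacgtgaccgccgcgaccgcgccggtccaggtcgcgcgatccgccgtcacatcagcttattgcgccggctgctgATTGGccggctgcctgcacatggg
Mvd, chr8:122443423-122443672, minus strand: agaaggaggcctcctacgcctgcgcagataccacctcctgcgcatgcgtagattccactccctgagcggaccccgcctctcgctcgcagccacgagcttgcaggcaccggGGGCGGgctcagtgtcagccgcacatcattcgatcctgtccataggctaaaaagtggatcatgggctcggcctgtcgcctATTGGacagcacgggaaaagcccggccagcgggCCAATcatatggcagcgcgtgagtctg
Hsd17b7, chr1:169969206-169969455, minus strand: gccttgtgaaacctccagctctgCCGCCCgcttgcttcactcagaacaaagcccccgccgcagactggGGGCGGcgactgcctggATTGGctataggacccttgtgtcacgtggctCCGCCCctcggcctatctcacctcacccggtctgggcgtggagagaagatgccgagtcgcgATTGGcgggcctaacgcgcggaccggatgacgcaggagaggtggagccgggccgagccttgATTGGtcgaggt
Cyp51, chr5:4104698-4104947, minus strand: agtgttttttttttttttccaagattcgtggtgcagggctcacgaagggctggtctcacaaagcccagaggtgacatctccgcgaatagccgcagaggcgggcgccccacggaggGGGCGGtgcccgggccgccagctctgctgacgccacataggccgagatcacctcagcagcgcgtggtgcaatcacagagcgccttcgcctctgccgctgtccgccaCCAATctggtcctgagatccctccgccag
Lss, chr10:76531355-76531604, plus strand: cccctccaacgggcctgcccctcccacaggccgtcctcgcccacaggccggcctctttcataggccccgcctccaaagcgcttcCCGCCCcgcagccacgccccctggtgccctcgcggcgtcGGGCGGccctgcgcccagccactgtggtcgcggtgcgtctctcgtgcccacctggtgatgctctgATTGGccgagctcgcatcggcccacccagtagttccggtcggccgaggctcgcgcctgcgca
Vldlr, chr19:27216234-27216483, plus strand: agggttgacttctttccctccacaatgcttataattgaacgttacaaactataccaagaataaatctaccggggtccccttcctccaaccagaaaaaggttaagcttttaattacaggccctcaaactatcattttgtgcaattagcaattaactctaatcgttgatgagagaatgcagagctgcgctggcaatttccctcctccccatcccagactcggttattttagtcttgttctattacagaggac
The 5 enzymes each hold at least 1 CCAAT and 1 GC box in this window, and Hsd17b7 holds 3 of each. The Vldlr window holds neither.

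Of 32 further sterol-related genes on a second list, 29 were measured. In Tsc1-null cells 14 of the 29 were called higher than wild type (21.3% of all genes) and 9 lower (20.8%), and in Tsc2-null cells 11 were higher (23.6%) and 14 lower (21.3%). Tmem97, a partner of NPC1, was 1.21 and 1.13 above wild type in the same order, and Lpcat3, a phospholipid-remodelling LXR target, 1.13 and 1.69. In Tsc1-null cells the oxysterol hydroxylase gene Cyp7b1 differed by -1.62 and Mbtps1, the site-1 protease gene that cuts SREBP, by -1.44. In Tsc2-null cells Ch25h, which makes 25-hydroxycholesterol, was 2.24 and the lysosomal lipase gene Lipa 1.40 above wild type, and Gramd1a, a sterol transfer gene, differed by -1.83.

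At 24 h of rapamycin 3 of the 29 were called higher (11.6% of all genes, near the share of the list) and 16 lower (18%) in Tsc1-null cells. In Tsc2-null cells 8 were higher (17.4%) and 14 lower (18.1%). Tmem97 differed by -1.33 and -2.05 in the same order, and Lrp8, a receptor related to Vldlr, by -1.38 and -1.67. The cholesteryl ester hydrolase gene Nceh1 differed by -1.20 in Tsc1-null cells, where the scavenger receptor gene Lrp1 was 0.88 higher. Ch25h was 1.19 and Rxrb, a partner receptor of LXR, 1.14 higher in Tsc2-null cells.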

How the data were processed

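Per the submitters' processing notes, the authors used RMA, a method that corrects background, normalizes between arrays and summarises log2 intensities per probe set, and limma, with no version stated there. The deposited log2 values (45101 probe sets, 2.72 to 14.74) were used as given, without further scaling. A second deposited table of log2 ratios served as an alternative. Probe sets were named through the platform annotation: 34958 name 1 gene, 932 several and 9211 none. For 9012 genes, 19 of the 28 members among them, the brightest of several probe sets was kept.

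Group means of 25 arrays in 11 groups were fitted with limma 3.58.1 in R 4.3.3 (lmFit, contrasts.fit, eBayes, 14 residual degrees of freedom, 7.08 prior degrees of freedom). All p-values are two-sided moderated tests, adjusted by Benjamini-Hochberg over 18194 genes. The procedure was tested on simulated data. The sterol genes, the second list and the tests were chosen with earlier results of these data known.

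Per-array values are given for Srebf2, Insig1, Hmgcs1, Sqle, Idi1, Stard4, Vldlr, Abca1, Abcg1 and Npc1, and for the 4 members with the largest called differences without overlap in each line against wild type and at 24 h. Further sterol genes were limited to the 4 largest per comparison. Alternatives were quantile normalization, median centring, an added offset, the mean of probe sets, a filter on dim genes, a trended prior, the deposited ratios, the groups compared alone, a replicate block and leaving out each plate. The same alternatives for the F test were added after seeing the data. The labels give no batch. Arrays give no read depth, and their number limits the precision.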

Additional observations from a re-analysis of the deposited data

Results flagged for a closer look

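These results stand out because a test of the difference itself, the rapamycin response of Tsc1-null cells minus that of Tsc2-null cells, gave an adjusted p below 0.05 (limma, Benjamini-Hochberg over all genes). Positive values mean a smaller fall, or a larger rise, in Tsc1-null cells, on the log2 scale. At 6 h the difference was 0.47 for Msmo1.

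At 12 h it was 0.50 for Mvk, 0.52 for Pmvk, 1.12 for Mvd and 0.85 for Fdps among the mevalonate steps. It was 0.78 for Sqle and 0.51 for Lss. After lanosterol it was 0.44 for Cyp51, 0.48 for Tm7sf2, 1.12 for Msmo1, 0.71 for Nsdhl, 0.75 for Hsd17b7, 0.49 for Ebp, 0.60 for Sc5d and 0.39 for Dhcr7. Outside synthesis it was 0.75 for Vldlr and 0.64 for Insig2.

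At 24 h it was 0.56 for Mvk, 0.53 for Pmvk, 0.83 for Mvd and 0.77 for Fdps. It was 0.39 for Sqle and 0.40 for Lss. After lanosterol it was 0.35 for Cyp51, 1.01 for Tm7sf2, 0.76 for Msmo1, 0.88 for Nsdhl, 0.53 for Hsd17b7, 0.77 for Ebp, 0.40 for Sc5d and 0.71 for Dhcr7. Outside synthesis it was 1.38 for Vldlr, -0.68 for Insig1 and 0.87 for Insig2. The lines also differ in p53 and in how they were immortalized, so a difference between them cannot be told apart from those features. For the Tsc1-null samples taken as 24 h and 12 h, a free-text label gives 14 h and 11 h. The part of that conflict in these differences was not tested. With the mean of all probe sets the differences of Msmo1 at 6 h (0.09), 12 h (0.57) and 24 h (0.20) and of Sc5d at 24 h (0.08) were not called. Those of Fdps at 12 h and 24 h and of Lss at 24 h were not called under that setting either. With the deposited ratios Lss, Cyp51, Tm7sf2, Hsd17b7 and Dhcr7 at 12 h and Mvk, Sqle and Hsd17b7 at 24 h were not called. Some calls were also lost without 1 plate, as given above.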

How the results depend on the processing

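Each count of called genes was computed again under other settings, and 257 of 273 such counts stayed within 1.5 times the reported one. The count for Tsc2-null cells at 2 h, 6 genes, was 3 with the replicate block and 2 when only the groups compared were fitted, and leaving out 1 plate gave 2 to 4. The count for Tsc1-null cells at 2 h, 1 gene, was 2 with quantile normalization, 3 with 64 added to the linear value and 2 with the mean of all probe sets. The count for the difference in response at 6 h, 1 gene, was 2 with quantile normalization, 3 with 64 added, 2 without the dimmest 40% of genes, 2 with a trended and robust prior and 2 with the deposited log2 ratios, and 0 to 1 without 1 plate. Of 239 called gene differences, 3 changed sign without being called, all with the deposited log2 ratios, a table of 9525 genes and 27 of the 28: Dhcr7 in Tsc2-null against wild-type cells (-0.0311), Msmo1 in Tsc1-null cells at 6 h (0.0102) and Fdps in Tsc1-null cells at 12 h (0.032). Of 3579 alternative values, 3367 kept direction and call and 209 kept the direction but not the call, of which 11 were under the replicate block. The cause was not tested. Replicate numbers showed no steady pairing: across 55 pairs of groups the correlation of deviations ran from -0.40 to 0.53 with a median of -0.03. It was above 0.1 in 13 pairs and below -0.1 in 17. A median near 0 cannot exclude a pairing or batch shared by some groups only. Leaving out 1 of 2 rapamycin plates assumes that the lone plate varies like the other groups. The number of arrays limits the precision.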
